A study of Mus musculus with 18 samples.

Results

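The genes described here are 8 regulators of the intermediate mesoderm and the nephric duct, the tissues that give rise to the kidney: Osr1, Pax2, Pax8, Lhx1, Gata3, Emx2, Ret and Gdnf. They were chosen by symbol, as 8 of the 53465 gene rows of the deposited table, by a rule that uses no measured value but was set with earlier results of these data known. Their transcripts were counted in RNA sequencing libraries from mouse embryos at embryonic day 9, the stage at which the nephric duct is growing caudally beside the somites. Every member had reads in all 4 groups of samples and passed the filter on low counts in all 5 comparisons.

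The intermediate mesoderm is a strip between the somites and the lateral plate, and Osr1, a zinc finger factor, is among its earliest markers. Pax2 and Pax8 are paired-box factors that act together to specify the nephric lineage, with Lhx1, a LIM homeobox factor, and Gata3, a zinc finger factor, acting in the duct that forms from it. Emx2 is a homeobox factor of the duct and of later urogenital epithelia. Gdnf is a secreted ligand made by the mesenchyme, and Ret is its receptor tyrosine kinase on the duct; their signal, with the co-receptor Gfra1, draws out the ureteric bud. Most of these genes also have sites of expression outside the kidney lineage, such as spinal cord neurons for Pax2, Pax8, Lhx1 and Gata3, neural crest for Ret and lateral plate for Osr1.

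Meis1 and Meis2 are homeobox factors of the TALE class. In the mutant embryos, called DKO, both genes had been conditionally removed with Delta1Cre; Delta1 (Dll1) is expressed in the presomitic mesoderm, so that this Cre acts in the paraxial mesoderm and its derivatives. The controls were labelled only as such, and the alleles they carried are not given in the sources used here. From each of 5 control and 4 DKO embryos with 20 to 24 somites, 2 libraries were made: a posterior one, from the axial bud with the newest somites, and an anterior one, from the rest of the somite-bearing axis, so that the 4 groups were anterior control, anterior DKO, posterior control and posterior DKO. The study asked which genes depend on Meis in anterior-posterior patterning of the axial skeleton, and the kidney regulators were not singled out in its description.

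The 18 libraries held 12.7 to 38.2 megacounts (M) of expected counts, and 3 counts, taken as the floor of detection, corresponded to 0.0791 to 0.233 counts per megacount (CPM). All levels below are CPM scaled between libraries by the trimmed mean of M values. Embryos are numbered within their genotype, and the numbers carry no order. Control embryo 1 was labelled female, but its libraries held 6 and 8 counts of Xist and 752 and 1821 counts of the Y-linked gene Ddx3y. The other 8 libraries labelled female held 8849 to 20763 counts of Xist and at most 6 of Ddx3y. Without this embryo, none of the 8 genes passed the threshold in either DKO comparison, and 8 of 8 did so between regions in controls, the same counts as with it.

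Promoter sequences were matched by symbol to RefSeq (GRCm38.p6) for 6 of the 8 genes; Osr1 and Ret had no match. Shown are 300 bases, from 250 before to 50 after the RefSeq start, 5′ to 3′ on the strand of the gene, for the 5 genes whose posterior control and DKO values did not overlap and whose RefSeq start lay within 798 bases of the GENCODE gene start. They lie at chr19:44755502-44755801 (plus strand) for Pax2, chr2:24475550-24475849 (minus) for Pax8, chr11:84525485-84525784 (minus) for Lhx1, chr19:59458440-59458739 (plus) for Emx2 and chr15:7809798-7810097 (plus) for Gdnf. Capitals mark matches, on either strand, to TGACAG (the core recognised by Meis factors) or AGGTCA (a motif of retinoic acid receptors).
Pax2: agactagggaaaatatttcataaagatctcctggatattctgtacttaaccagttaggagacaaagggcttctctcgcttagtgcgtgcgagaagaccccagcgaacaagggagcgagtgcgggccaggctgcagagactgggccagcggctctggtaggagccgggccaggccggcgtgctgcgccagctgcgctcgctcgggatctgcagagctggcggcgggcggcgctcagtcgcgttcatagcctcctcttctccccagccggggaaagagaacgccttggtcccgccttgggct
Pax8: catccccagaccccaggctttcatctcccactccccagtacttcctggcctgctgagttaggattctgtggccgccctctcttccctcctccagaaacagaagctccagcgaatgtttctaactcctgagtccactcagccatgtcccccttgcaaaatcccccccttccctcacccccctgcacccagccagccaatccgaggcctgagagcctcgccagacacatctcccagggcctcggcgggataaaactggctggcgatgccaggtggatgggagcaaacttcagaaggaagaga
Lhx1: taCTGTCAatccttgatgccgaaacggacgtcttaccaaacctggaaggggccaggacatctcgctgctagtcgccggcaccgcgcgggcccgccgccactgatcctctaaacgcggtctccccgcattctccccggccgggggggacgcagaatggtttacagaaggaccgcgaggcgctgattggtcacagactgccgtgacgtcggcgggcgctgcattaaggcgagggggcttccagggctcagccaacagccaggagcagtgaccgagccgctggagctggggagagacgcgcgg
Emx2: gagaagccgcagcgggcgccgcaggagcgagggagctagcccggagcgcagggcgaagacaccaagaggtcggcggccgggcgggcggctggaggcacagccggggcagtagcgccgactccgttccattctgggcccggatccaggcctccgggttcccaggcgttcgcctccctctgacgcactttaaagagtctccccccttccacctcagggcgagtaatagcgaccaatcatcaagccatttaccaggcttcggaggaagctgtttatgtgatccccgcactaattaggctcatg
Gdnf: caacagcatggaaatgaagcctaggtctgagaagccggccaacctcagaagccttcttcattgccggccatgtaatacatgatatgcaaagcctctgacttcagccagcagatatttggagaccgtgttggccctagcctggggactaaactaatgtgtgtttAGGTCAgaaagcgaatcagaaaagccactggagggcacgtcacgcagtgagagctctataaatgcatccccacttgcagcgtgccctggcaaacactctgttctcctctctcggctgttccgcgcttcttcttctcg

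Among the 6 promoters, TGACAG had 1 match, on the reverse strand 248 bases before the start of Lhx1. It occurs in 19.2% of all 32851 RefSeq promoters of this length. AGGTCA had 1 match, 87 bases before the start of Gdnf, and occurs in 16.3% of promoters. Neither TGATNNAT, a composite of Pbx and Hox factors found in 8.85% of promoters, nor TGATTGAC, a composite of Pbx and Meis factors found in 0.77%, had a match in these 6 windows. TGATTGAC and TGACAG can share letters, but no match overlapped another. A match to letters is a description of the window and does not show a binding site.

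Transcripts of the deleted genes were counted first. Meis1 stood at 121, 113, 135, 127 and 130 CPM in the anterior libraries of control embryos 1 to 5 and at 89.8, 111, 98.3 and 108 CPM in those of DKO embryos 1 to 4. Posterior Meis1 was 92.6, 59.6, 99.9, 87.1 and 83.1 CPM in controls and 49.2, 72.0, 46.7 and 62.3 CPM in DKO. The groups did not overlap anteriorly, and posteriorly control embryo 2 lay within the DKO range.

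Meis2 was lower in every DKO library than in every control library of its region, at 177 to 203 against 130 to 157 CPM anteriorly and 117 to 162 against 91.2 to 116 CPM posteriorly. Neither gene passed the threshold in either region (Meis2: adjusted p = 0.0522 anteriorly and 0.196 posteriorly, edgeR quasi-likelihood test with Benjamini-Hochberg adjustment). Counts per gene include transcripts that lack the deleted exons and those of cells in which Cre did not act.

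All 8 kidney regulators were expressed at a higher level in the posterior than in the anterior region. In controls the posterior level was 2.71 (Ret) to 5.20 (Pax2) times the anterior level, and all 8 rose past the threshold, where 12.1% of the 15294 genes tested did so. Pax8 and Gdnf passed the filter on low counts there only through the posterior libraries, and of the other 6 genes 6 rose. In DKO embryos all 8 were higher posteriorly on average, and all but Lhx1 passed the threshold, where 8.76% of 15777 genes rose past it. Pax8 again passed the filter only through the posterior libraries. Posterior and anterior libraries did not overlap for any of the 8 genes in controls (9.44% of all genes were higher without overlap) and for 7 of 8 in DKO (10.9% of all genes).

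**Figure D1:**
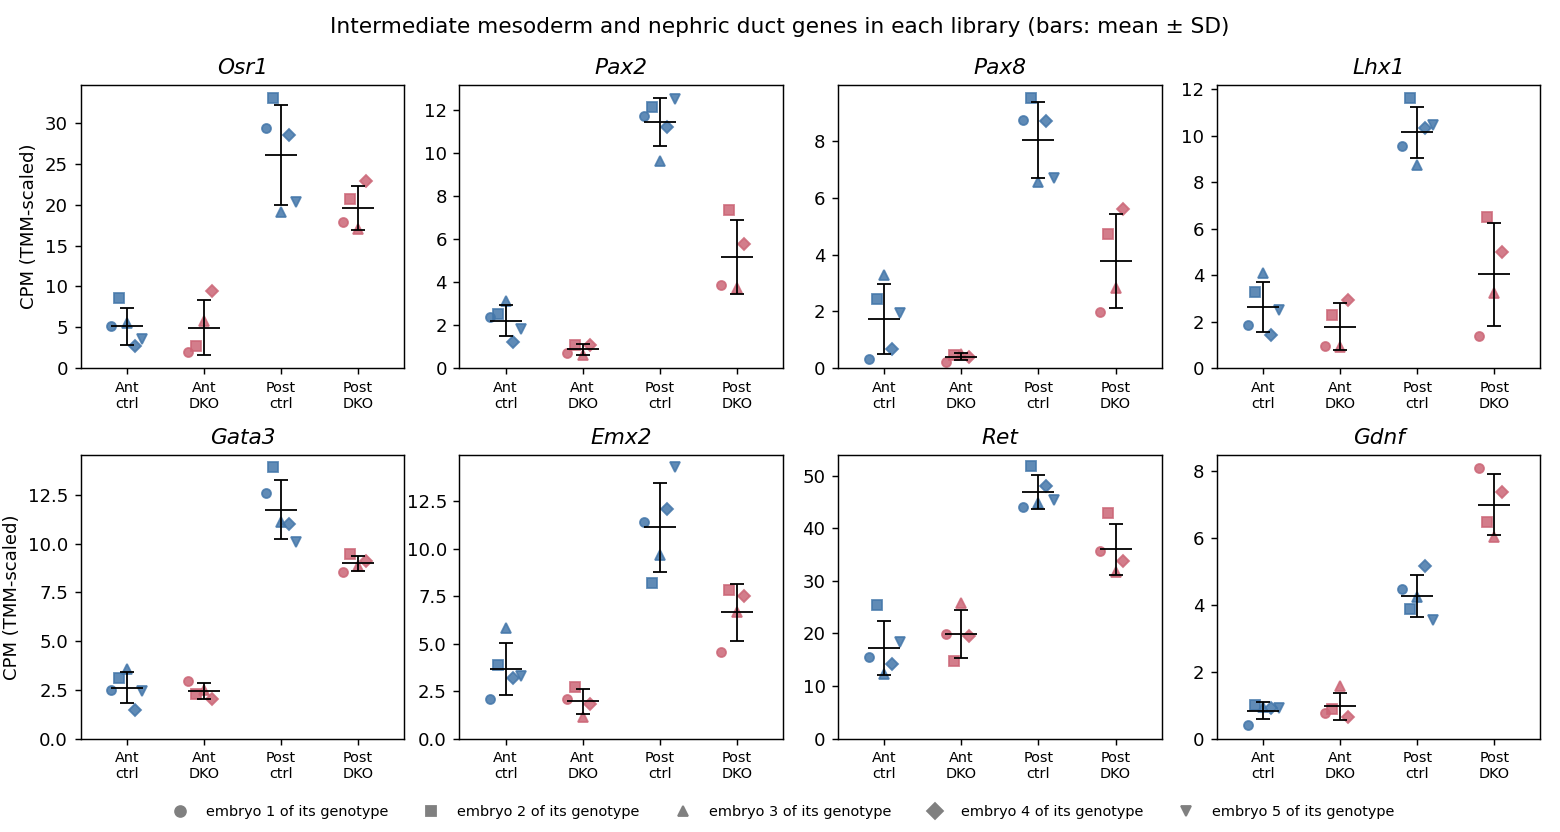
Level of each of the 8 genes (y axis, TMM-scaled CPM, from 0) in each library (points) by region and genotype, with mean and SD as bars; point shapes mark the embryos. Posterior libraries lie above anterior ones for every gene in controls, and posterior DKO libraries lie below the controls for Pax2, Pax8, Lhx1, Gata3, Emx2 and Ret and above them for Gdnf.

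Osr1 had the highest posterior level per length. Its transcripts (plus strand of chromosome 12, 9570116 to 9581500, GRCm38) were counted at 26.1 ± 6.07 CPM (SD, n = 5) in posterior and 5.14 ± 2.26 CPM (n = 5) in anterior controls, a log2 difference of 2.32 (SE 0.264, adjusted p = 3.27e-05). In DKO the levels were 19.6 ± 2.67 and 4.98 ± 3.37 CPM (n = 4 each), with a log2 difference of 1.98 (SE 0.401, adjusted p = 0.00601). Anterior Osr1 varied widely between embryos, from 2.0 to 9.40 CPM over the DKO.

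Pax2 (plus strand of chromosome 19, 44756045 to 44837871) rose from 2.21 ± 0.724 to 11.4 ± 1.12 CPM in controls, a log2 difference of 2.38 (SE 0.198, adjusted p = 2.67e-06). The same step in DKO led from 0.884 ± 0.244 to 5.19 ± 1.73 CPM, a log2 difference of 2.55 (SE 0.292, adjusted p = 0.000194). Both DKO means lay below the control mean of their region.

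Pax8 (minus strand of chromosome 2, 24420560 to 24475599) rose from 1.74 ± 1.22 to 8.03 ± 1.33 CPM in controls (log2 difference 2.23, SE 0.407, adjusted p = 0.00138) and from 0.407 ± 0.126 to 3.77 ± 1.66 CPM in DKO (3.25, SE 0.398, adjusted p = 0.000288). It was the scarcest of the factors in the anterior DKO libraries, where it had 8 to 12 counts per library.

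Lhx1 (minus strand of chromosome 11, 84518284 to 84525535) rose from 2.65 ± 1.08 to 10.2 ± 1.09 CPM in controls (log2 difference 1.94, SE 0.230, adjusted p = 4.61e-05). In DKO its means were 1.78 ± 1.01 and 4.05 ± 2.21 CPM, and the log2 difference of 1.18 (SE 0.50) did not pass (adjusted p = 0.144). With the embryo as a replicate block it passed, at an adjusted p of 0.0406 with a random and 0.0117 with a fixed block.

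Gata3 (minus strand of chromosome 2, 9857078 to 9890034) rose from 2.61 ± 0.804 to 11.7 ± 1.51 CPM in controls and from 2.43 ± 0.411 to 8.998 ± 0.383 CPM in DKO. Emx2 (plus strand of chromosome 19, 59458372 to 59465357) rose from 3.65 ± 1.38 to 11.1 ± 2.33 CPM and from 1.95 ± 0.651 to 6.64 ± 1.48 CPM. An antisense gene, Emx2os, overlaps Emx2 by 264 bases and had 3 to 79 counts per library, and Gata3 overlaps 9230102O04Rik on its own strand with 0 to 18 counts, so that some reads of these loci cannot be assigned with certainty. The log2 differences were 2.17 (SE 0.196) and 1.88 (SE 0.148) for Gata3 and 1.62 (SE 0.233) and 1.76 (SE 0.261) for Emx2, in controls and DKO respectively.

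The receptor Ret (minus strand of chromosome 6, 118151745 to 118197718) had the smallest regional ratio of the 8 genes in both genotypes. It rose from 17.1 ± 5.13 to 46.8 ± 3.21 CPM in controls, a log2 difference of 1.44 (SE 0.158, adjusted p = 2.48e-05), and from 20.0 ± 4.56 to 36.0 ± 4.91 CPM in DKO, a log2 difference of 0.86 (SE 0.158, adjusted p = 0.00353). Its ligand Gdnf (plus strand of chromosome 15, 7810846 to 7837575) rose from 0.833 ± 0.247 to 4.26 ± 0.625 CPM in controls (log2 difference 2.35, SE 0.228) and from 0.966 ± 0.406 to 7.0 ± 0.921 CPM in DKO (2.90, SE 0.257).

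Measured within each embryo, posterior against anterior, each of the 8 genes was higher posteriorly in 5 of 5 control and in 4 of 4 DKO embryos. The mean within-embryo log2 difference of Pax2 was 2.39 ± 0.572 (SD, n = 5) in controls and 2.42 ± 0.176 (n = 4) in DKO. For Lhx1 it was 1.99 ± 0.633 and 1.12 ± 0.567, for Ret 1.49 ± 0.339 and 0.87 ± 0.515, and for Gdnf 2.28 ± 0.575 and 2.81 ± 0.658. The embryos of the 2 genotypes overlapped for every one of these genes.

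**Figure D2:**
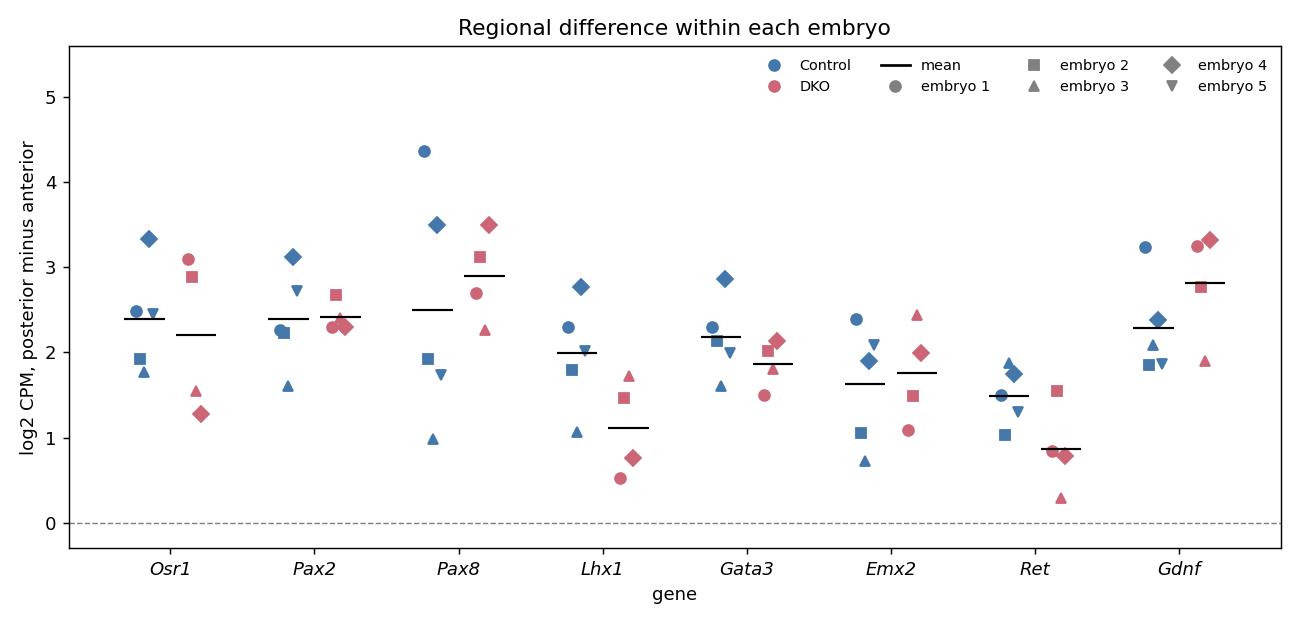
Posterior minus anterior log2 CPM (y axis) within each embryo (points, shaped by embryo) for the 8 genes (x axis), with the mean of each genotype as a line. Every point lies above 0, and the control and DKO points overlap for each gene.

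Axial bud markers set the regions apart, at 17.9 to 23.2 CPM summed in anterior and 280 to 549 CPM in posterior libraries. Lateral plate markers summed to 5.51 to 50.3 CPM anteriorly and 49.0 to 77.6 CPM posteriorly. In controls 3 of these 6 markers rose past the threshold posteriorly and 1, Tbx5, fell past it (3.70 ± 4.81 CPM anteriorly and 0.407 ± 0.223 CPM posteriorly, n = 5 each). Somite markers were present in both regions (187 to 452 CPM). Otx2, a marker of the head, had at most 3 counts in any library. In such bulk samples, fewer cells of a type and less RNA per cell cannot be told apart. The part of tissue makeup in the regional differences was not tested.

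Posterior DKO libraries held less RNA of 6 of the 8 genes than any posterior control library. Pax2, Pax8 and Lhx1 had the largest ratios, Emx2 an intermediate one, and Gata3 and Ret smaller ones. Gdnf was the exception, at a higher level in every posterior DKO library than in any control. By edgeR none of the 8 passed the threshold after adjustment over all 15936 genes tested, where 2 genes in all (0.0126%) did so. At an unadjusted p below 0.05 were 7 genes lower in DKO, where 5.74% of all genes were, and 1 gene higher, where 5.27% were. Groups did not overlap for 6 genes lower in DKO (2.13% of all genes) and for 1 gene higher (2.16%). The median log2 difference was −0.58 over the 8 genes and 0.01 over all genes tested.

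**Figure D3:**
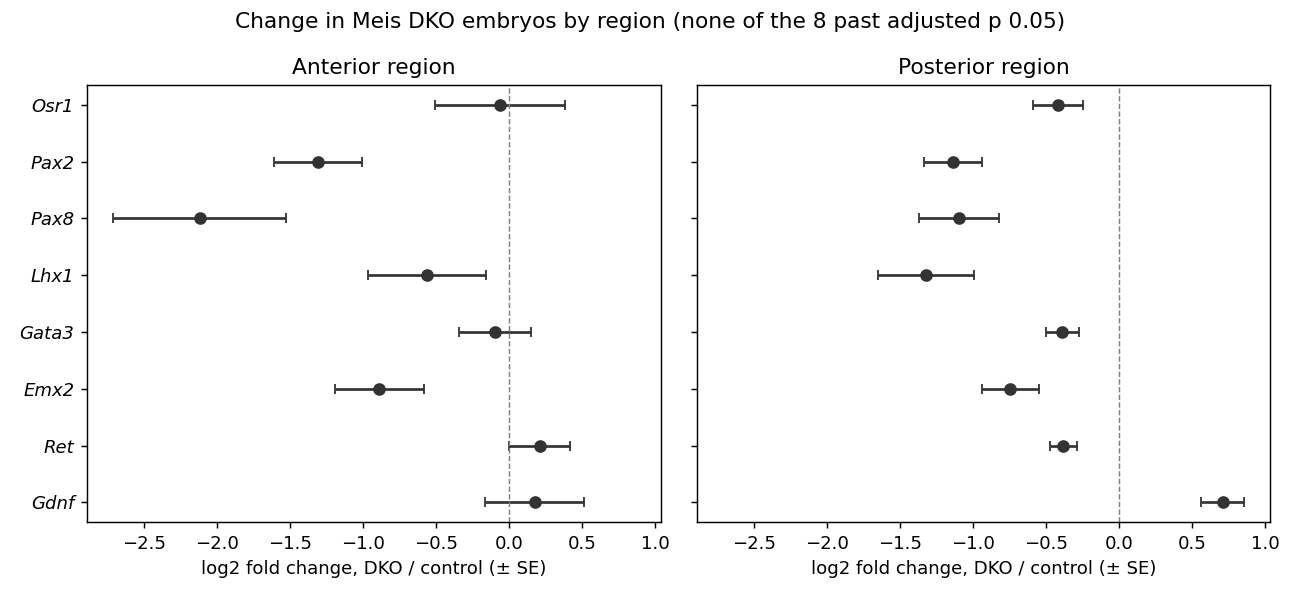
Log2 fold change of DKO over control (x axis, with its standard error as bars) for the 8 genes in the anterior (left) and posterior (right) region. Posteriorly 7 genes lie below 0 and Gdnf lies above it, and no gene passed an adjusted p of 0.05.

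Of the early factors, Osr1 showed overlapping groups. Its posterior levels were 29.4, 33.0, 19.1, 28.5 and 20.3 CPM in control embryos 1 to 5 and 17.8, 20.7, 17.03 and 22.8 CPM in DKO embryos 1 to 4. Control embryos 3 and 5 lay inside the DKO range, and the log2 difference was −0.42 (SE 0.169, adjusted p = 0.446, edgeR).

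Posterior Pax2 was 11.7, 12.2, 9.63, 11.2 and 12.5 CPM in controls and 3.86, 7.36, 3.74 and 5.79 CPM in DKO. The controls lay close together, and DKO embryo 2 came nearest to them. The log2 difference was −1.14 (SE 0.196, adjusted p = 0.126), with DKO below control in 4 of 4 embryos. The adjusted p was 1.58e-05 by DESeq2, 0.00665 with the embryo as a random replicate block, 0.0246 with no filter on low counts and 0.0478 with all 18 libraries in one fit. It was 0.0239 without DKO embryo 2 and 0.441 without DKO embryo 1.

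Posterior Pax8 was 8.73, 9.49, 6.56, 8.68 and 6.68 CPM in controls and 1.97, 4.71, 2.83 and 5.58 CPM in DKO. Embryo 4 was the highest of the DKO and embryo 1 the lowest, and the highest DKO value lay under the lowest control. The log2 difference was −1.09 (SE 0.272, adjusted p = 0.259, edgeR; 0.00891 by DESeq2).

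Posterior Lhx1 was 9.57, 11.6, 8.73, 10.3 and 10.5 CPM in controls and 1.40, 6.53, 3.26 and 5.02 CPM in DKO. DKO embryo 1 stood lowest, 2.78 below the control mean on the log2 scale, and embryo 2 highest, 0.62 below it. The log2 difference of −1.32 (SE 0.328, adjusted p = 0.259) was the largest of the 8 genes in this region, and it was −1.03 without DKO embryo 1 and −1.67 without DKO embryo 2. The adjusted p was 0.00576 by DESeq2 and 0.0358 with the embryo as a random replicate block.

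Emx2 was counted posteriorly at 11.4, 8.16, 9.69, 12.1 and 14.3 CPM in controls and at 4.54, 7.82, 6.67 and 7.53 CPM in DKO. Control embryo 2 and DKO embryo 2 were nearly level, and no DKO library exceeded a control. Its log2 difference was −0.74 (SE 0.194, adjusted p = 0.282; 0.0257 by DESeq2).

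The posterior levels of Gata3 were 12.6, 13.9, 11.1, 11.02 and 10.1 CPM in controls and 8.56, 9.46, 8.86 and 9.12 CPM in DKO. Its DKO libraries were the least spread of any of the 8 genes, and they lay just under the lowest control. The log2 difference was −0.39 (SE 0.112, adjusted p = 0.344), and it passed under none of the alternatives tried, DESeq2 included.

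Ret, the receptor, stood at 44.1, 51.9, 44.9, 48.0 and 45.3 CPM in posterior controls and at 35.7, 42.9, 31.6 and 33.8 CPM in posterior DKO. DKO embryo 2 again lay nearest the controls. The log2 difference was −0.38 (SE 0.0912, adjusted p = 0.252; 0.0233 by DESeq2).

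Gdnf, the ligand, stood at 4.48, 3.87, 4.24, 5.17 and 3.53 CPM in posterior controls and at 8.10, 6.49, 6.03 and 7.38 CPM in posterior DKO. Ligand and receptor thus differed from control in opposite directions in 4 of 4 DKO embryos. The log2 difference of Gdnf was 0.71 (SE 0.147, adjusted p = 0.196, edgeR), and its adjusted p was 0.00599 by DESeq2 and 0.06 with the embryo as a random replicate block. DESeq2 called 6 of the 8 genes in this region, all but Osr1 and Gata3, and 161 of the 15936 genes tested.

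**Figure D4:**
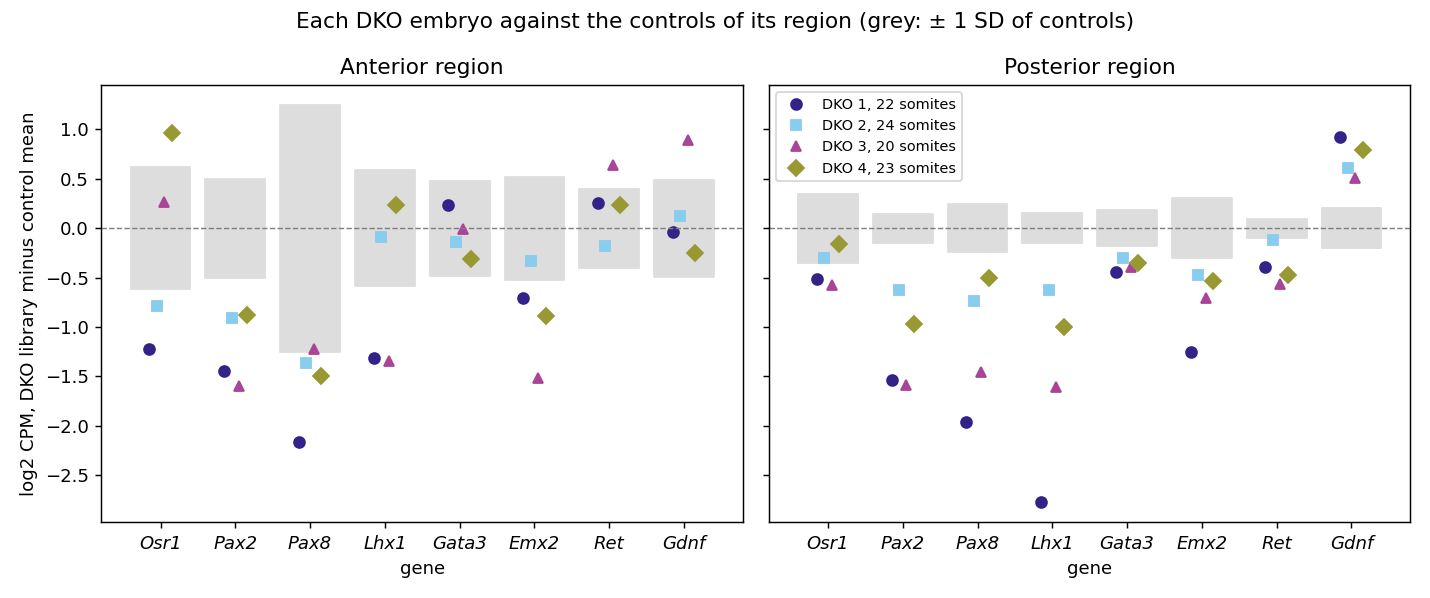
Log2 CPM of each DKO library (points, by embryo with its somite number) minus the mean of the controls of its region (y axis) for the 8 genes (x axis), with 1 SD of the controls in grey. Posteriorly every DKO embryo lies below the control mean for 7 genes and above it for Gdnf; anteriorly the embryos scatter around 0 for Osr1, Gata3, Ret and Gdnf.

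By embryo, the posterior libraries of DKO embryos 1 and 3 were below all controls for 7 of the 8 genes and those of embryos 2 and 4 for 6, and each was above all controls for 1 gene, Gdnf. Of all genes tested, 15.4%, 15.8%, 16.4% and 30.1% were below all controls in DKO embryos 1 to 4, and 17.8%, 19.9%, 16.5% and 29.4% above, so that the library of embryo 4 stood further from the controls than the others. Embryo 2 had the highest remaining posterior Meis1 among the DKO (72.0 CPM) and the highest Pax2, Lhx1, Gata3, Emx2 and Ret, while Osr1 (22.8 CPM) and Pax8 (5.58 CPM) were highest in embryo 4. Embryo 2 also had the most somites (24), while embryos 1 and 3, with 22 and 20, had the lowest values of Pax2 and Lhx1. Embryos 1 and 3 were labelled female and embryos 2 and 4 male. Posterior control embryo 2 had less Meis1 (59.6 CPM) than DKO embryos 2 and 4 (62.3 CPM in embryo 4), but 12.2 CPM of Pax2 and 11.6 CPM of Lhx1. With 4 DKO embryos no relation to residual Meis1, stage or sex label was tested. Control embryos covered the same 20 to 24 somites.

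Markers of other tissues were read beside these genes. In the posterior region the summed somite markers were 329 to 452 CPM in control and 187 to 348 CPM in DKO, the neural tube progenitor markers 265 to 370 and 317 to 409 CPM, and the lateral plate markers 57.5 to 77.6 and 49.0 to 68.2 CPM. Primitive erythroid markers summed to 1358 to 2200 CPM in control and 1635 to 3382 CPM in DKO, and gut endoderm markers to 20.6 to 32.6 and 20.9 to 36.4 CPM. Axial bud markers summed to 280 to 536 CPM in control and 325 to 549 CPM in DKO, with 7 of 7 higher in DKO. The groups overlapped for each of these sums. Neural crest markers were higher for 6 of 6 tested, neuron markers for 4 of 5, and endothelial markers lower for 5 of 5. Among these and the axial bud markers, only 1 neuron marker higher and 1 lower in DKO had an unadjusted p below 0.05. The summed otic vesicle markers did not overlap, at 8.84 to 12.9 CPM in control and 13.8 to 15.5 CPM in DKO, higher in every DKO library. Lmx1a (7.33 ± 1.18 and 9.11 ± 1.07 CPM) and Dlx5 (4.09 ± 0.608 and 5.05 ± 0.316 CPM) held most of that sum, while Oc90, Hmx2 and Hmx3 had at most 2 counts in any posterior library. No marker of these lists passed the threshold. At an unadjusted p below 0.05 were 5 of 6 erythroid and 3 of 7 gut endoderm markers, higher in DKO, 2 of 8 neural progenitor markers, also higher, and 3 of 7 somite markers and 1 of 5 lateral plate markers, lower in DKO. Of all genes tested, 5.27% were higher and 5.74% lower at this level. The sum of the 8 spinal interneuron markers is not used here: Evx1 (31.3 ± 9.86 CPM in control, 36.7 ± 8.92 in DKO) and Gad1 (8.997 ± 2.04 and 8.94 ± 0.476 CPM) held most of it, and both were under 1 CPM in every anterior library. Lhx5 stood at 1.03 ± 0.224 and 1.55 ± 0.816 CPM and Pou4f1 at 3.53 ± 0.793 and 4.32 ± 0.523 CPM, and Pax5, En1, Lbx1 and Tlx3 were under 1 CPM in every posterior library. The part of these tissues in the differences of Pax2, Pax8, Lhx1, Emx2, Ret and Gdnf was not tested.

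In the anterior libraries none of the 8 genes passed the threshold by edgeR, where 6 of 15238 genes (0.0394%) did. Pax2 and Emx2 were lower in DKO at an unadjusted p below 0.05, where 6.61% of all genes were lower and 6.41% higher. Pax8 was so as well, but it passed the filter only through the control libraries and is not counted with them. Only Pax2 had groups that did not overlap; of all genes 2.61% were lower without overlap and 2.45% higher.

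Anterior Pax2 was 2.38, 2.52, 3.11, 1.21 and 1.81 CPM in controls and 0.715, 1.08, 0.635 and 1.11 CPM in DKO. Each DKO library lay below each control, DKO embryo 4 by a small margin below control embryo 4. The log2 difference was −1.31 (SE 0.300, adjusted p = 0.123; 0.0127 by DESeq2), beside −1.14 posteriorly.

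Anterior Pax8 was 0.340, 2.44, 3.27, 0.690 and 1.94 CPM in controls, or 6 to 63 counts, and 0.229, 0.463, 0.520 and 0.415 CPM in DKO. Control embryo 1 lay inside the DKO range and control embryo 4 close above it, while the other controls were several times higher. The log2 difference was −2.12 (SE 0.593, adjusted p = 0.185; 0.0252 by DESeq2). It was not tested in 5 of the 19 alternatives, in which the filter removed it.

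For anterior Emx2 the values were 2.10, 3.87, 5.83, 3.16 and 3.30 CPM in controls and 2.09, 2.73, 1.15 and 1.83 CPM in DKO. DKO embryo 2 lay above control embryo 1, and the log2 difference was −0.89 (SE 0.303, adjusted p = 0.259).

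The other 5 genes overlapped widely in this region. Lhx1 ranged from 1.44 to 4.12 CPM in control and 0.924 to 2.94 CPM in DKO (log2 difference −0.56, SE 0.406), and Gata3 from 1.44 to 3.58 and 2.005 to 2.97 CPM (−0.10, SE 0.245). Osr1 ranged from 2.76 to 8.64 CPM in control and from 2.0 to 9.40 CPM in DKO (−0.06, SE 0.445). Ret ranged from 12.2 to 25.4 and 14.7 to 25.8 CPM (0.21, SE 0.210), and Gdnf from 0.397 to 1.01 and 0.657 to 1.56 CPM (0.17, SE 0.340). Over the alternatives run, the difference of Lhx1 ranged from −0.93 without DKO embryo 4 to −0.34 without DKO embryo 1, and that of Ret from 0.067 without DKO embryo 3 to 0.40 without control embryo 2. For Osr1, Gata3 and Gdnf the posterior difference lay within 2 of these standard errors of the anterior one, and their signs turned when single libraries were left out.

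Beside these values, the summed lateral plate markers ran from 9.94 to 50.3 CPM (median 21.4) in anterior controls and from 5.51 to 23.5 CPM (median 8.95) in anterior DKO. Neural tube progenitor markers summed to 493 to 634 and 647 to 720 CPM, and neural crest markers to 168 to 195 and 210 to 239 CPM, higher in every DKO library. At an unadjusted p below 0.05, 7 of 8 neural tube progenitor and 5 of 7 neural crest markers were higher in DKO and 0 lower. Of all genes tested, 6.41% were higher and 6.61% lower at this level. Somite markers summed to 317.0 to 374 CPM in control and to 244 to 316.9 CPM in DKO, just without overlap, with 4 of 7 lower and 2 higher at an unadjusted p below 0.05. Primitive erythroid markers summed to 959 to 4621 and 1204 to 2016 CPM, with 6 of 6 lower in DKO, 0 of them at an unadjusted p below 0.05. Spinal interneuron markers summed to 9.34 to 23.1 CPM in control and 6.06 to 24.6 CPM in DKO. Of these, Lbx1 stood at 7.38 ± 1.19 CPM in control and 3.55 ± 3.25 CPM in DKO (log2 difference −1.07, SE 0.479, adjusted p = 0.377 by edgeR), the only 1 of the 5 tested at an unadjusted p below 0.05. Neither Lbx1 nor the summed list is read here as a measure of spinal interneurons alone. En1 stood at 2.56 ± 2.63 CPM in control, with single libraries from 0.0387 to 7 CPM, and at 0.837 ± 1.11 CPM in DKO. Its DKO median of 0.410 CPM lay under the filter cutoff of 0.566 CPM. En1 was therefore tested only with the help of the control libraries, and its difference is not used here. Lhx5, Pax5 and Pou4f1 were higher in DKO on average. No marker of these lists passed the threshold. Their part in the anterior differences of Pax2, Pax8 and Emx2 was not tested.

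Whether the DKO effect differed between regions was tested by the interaction of region and genotype over the 18 libraries. None of the 8 genes passed (0% of 16428 genes did by edgeR, and 10 genes by DESeq2, none of them among the 8), and every adjusted p was 0.999. At an unadjusted p below 0.05 was 1 gene, Ret, where 3.45% of all genes were. The interaction of Ret was −0.59 (SE 0.242), which sets a posterior difference of −0.38 against an anterior one of 0.21. This fit treated the libraries of an embryo as independent. With the embryo as a random replicate block 1 of the 8 genes was under 0.05, and with a fixed block 2 were. Ret was no longer under 0.05 without control embryo 4 or DKO embryo 1, 3 or 4, and its interaction ranged from −0.80 without DKO embryo 2 to −0.40 without DKO embryo 3. Without control embryo 1, 3 of the 8 genes (Pax8, Ret and Gdnf) were under 0.05, and without DKO embryo 3 only Gdnf was. The share of all genes under 0.05 was counted only in the fit without a block over all 18 libraries. For Pax2 the interaction was 0.17 (SE 0.345), for Lhx1 −0.76 (SE 0.555), for Gdnf 0.54 (SE 0.346) and for Pax8 1.03 (SE 0.649). Over the alternatives these ran from −0.030 to 0.32 for Pax2, from −1.01 to −0.50 for Lhx1, from 0.37 to 0.90 for Gdnf and from 0.54 to 1.33 for Pax8. The posterior effects of Gdnf and Lhx1 were therefore not shown to differ from the anterior ones.

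Levels were compared between genes per kilobase of merged exons. In posterior controls the order was Osr1 (12.6 CPM per kilobase), Ret (6.93), Emx2 (3.70), Gata3 (2.95), Lhx1 (2.49), Pax2 (2.12), Pax8 (1.32) and Gdnf (1.16). Osr1 and Ret were each separated from the gene below them. Emx2, Gata3, Lhx1 and Pax2 overlapped with their neighbours in this order, Pax2 was separated from Pax8, and Pax8 and Gdnf overlapped. In posterior DKO, Gdnf (1.91) ranked above Lhx1 (0.995), Pax2 (0.959) and Pax8 (0.623), and it did not overlap with Lhx1. Anteriorly Ret (2.53 in control, 2.95 in DKO) and Osr1 (2.49 and 2.41) led in both genotypes and overlapped with each other.

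The 8 genes varied together over the libraries to different degrees. Over the 18 libraries, which differ in region and genotype, the Pearson correlation of log2 CPM was 0.912 between Pax2 and Lhx1 and 0.946 between Pax2 and Emx2, and lowest, at 0.545, between Lhx1 and Gdnf. After the mean of each group was removed, Pax2 and Lhx1 still had 0.837, while the most negative values were −0.38 between Emx2 and Ret and −0.29 between Pax2 and Gdnf. The libraries of each embryo share their embryo, and these values are descriptions without a test.

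Among the 10638 or 10639 protein-coding genes with a mean of at least 5 CPM, the 3 most like a regulator over the 18 libraries included another of the 8 for Pax8, Lhx1 and Emx2. The limit of 5 CPM kept Pax8, Lhx1 and Gdnf themselves out of the genes compared. Pax8 was most like Gm14226 (0.943), Emx2 (0.932) and Pax2 (0.931), Lhx1 was most like Pax2, Shroom3 (0.906) and Emx2 (0.886), and Emx2 was most like Gm14226 (0.959), Pax2 and Bmp4 (0.932). Pax2 itself was most like Crlf3 (0.959), Shroom3 (0.958) and Ltbp1 (0.957). Ret was most like Anxa11 (0.967) and Gfra3 (0.950), Gdnf most like Itpk1 (0.970), Aldh1b1 (0.965) and Epcam (0.964), Gata3 most like Vwa2 (0.978), Spred3 (0.976) and Kif26b (0.973), and Osr1 most like Lamb1 (0.957), Dsp (0.951) and Smad6 (0.951).

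With group means removed, Osr1 was most like Dact2 (0.899), Cldn11 (0.788) and Foxf1 (0.786), the last a lateral plate marker. Lhx1 was then most like Smarcd2 (0.884), Pax2 and Rtl6 (0.827), and Gata3 most like Ncam1 (0.888), Bmper (0.873) and Radil (0.831). Among the genes above this limit, which leaves out Lhx1, Pax2 was most like Hdac5 (0.812), Runx1t1 (0.801) and Gja5 (0.795), Pax8 like Abca7 (0.774), Sugp1 (0.723) and Rce1 (0.722), Emx2 like Pcbp3 (0.800), Xntrpc (0.757) and Wnt7b (0.754), Ret like Pcbd1 (0.865), Cpn1 (0.861) and Rnf31 (0.8295), and Gdnf like Nr1d2 (0.782), Fadd (0.763) and Rell1 (0.739).

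A further 37 genes of kidney and nephric duct development were read beside the 8. In the posterior region 36 were tested, and 24 were lower and 12 higher in DKO, none past the threshold; 14 were lower and 1 higher at an unadjusted p below 0.05, where 5.74% and 5.27% of all genes were. Their median log2 difference was −0.18. Anteriorly 33 were tested, with 23 lower and 10 higher, 5 and 4 of them at an unadjusted p below 0.05 (6.61% and 6.41% of all genes), and a median of −0.09. The 5 include Wt1, which passed the filter there only through the control libraries.

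**Figure D5:**
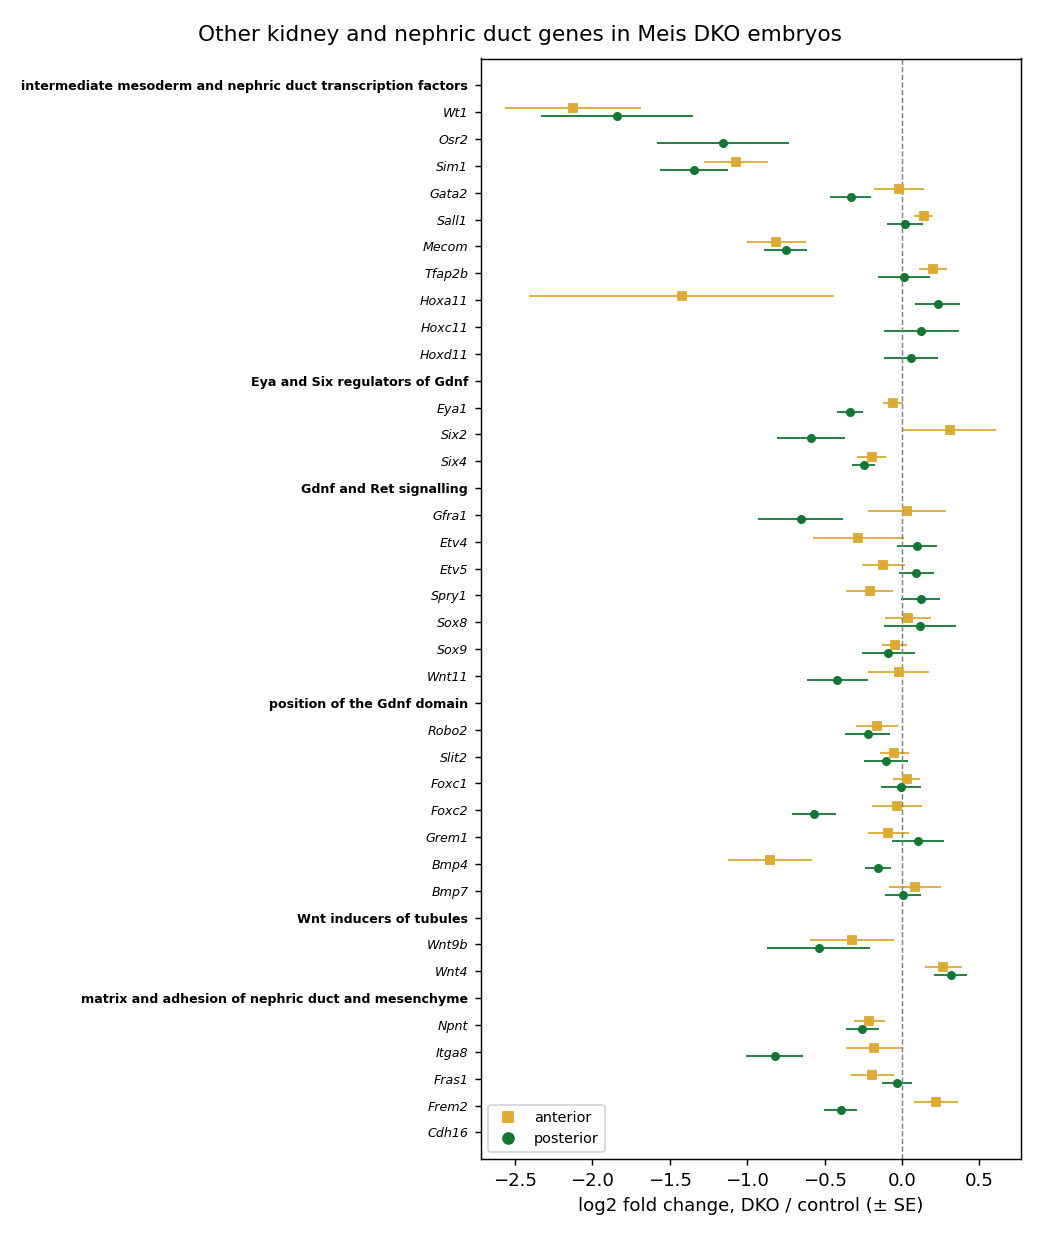
Log2 fold change of DKO over control (x axis, with its standard error as bars) for other kidney and nephric duct genes by role, in the anterior (squares) and posterior (circles) region; a gene without a point was not tested there. Wt1, Sim1 and Mecom lie below 0 in both regions, and none of the genes passed an adjusted p of 0.05. Anterior Wt1 passed the filter only through the control libraries.

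The smallest p-values of these genes belonged to transcription factors and to an integrin. Sim1, a bHLH factor that is transcribed in the mesonephric duct and in somites, was 11.7 ± 2.68 CPM in posterior control and 4.54 ± 1.39 CPM in posterior DKO (log2 difference −1.34, SE 0.220, adjusted p = 0.0978). Anteriorly Sim1 was 9.497 ± 0.838 and 4.53 ± 1.57 CPM (−1.07, SE 0.208, adjusted p = 0.0881). Every DKO library lay below every control library for Sim1 in both regions, as for 2.61% of all genes anteriorly and 2.13% posteriorly. Sim1 was named for its small p-value, so this adds no separate support.

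Wt1, a zinc finger factor of the nephrogenic mesenchyme and the coelomic lining, was 4.55 ± 1.90 CPM in anterior control and 1.06 ± 0.587 CPM in anterior DKO (log2 difference −2.12, SE 0.437, adjusted p = 0.0915). Its lowest anterior DKO library (0.286 CPM) lay under the cutoff of the filter on low counts (0.566 CPM). Like Pax8, Wt1 therefore passed that filter anteriorly only through the control libraries, which limits what its difference can show. Posteriorly Mecom, a zinc finger factor expressed in the duct, was 21.3 ± 3.09 and 12.6 ± 2.13 CPM (−0.75, SE 0.138, adjusted p = 0.196). Itga8, an integrin subunit of the kidney mesenchyme, was 11.7 ± 2.18 and 6.60 ± 1.67 CPM (−0.82, SE 0.186, adjusted p = 0.217).

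By role, Eya1, Six2 and Six4, which act upstream of Gdnf, had log2 differences of −0.33, −0.59 and −0.25 in posterior DKO, none past the threshold. Eya1 was 34.6 ± 2.38 CPM in posterior control and 27.4 ± 2.28 CPM in posterior DKO, where Gdnf was higher. The 7 genes of Gdnf and Ret signalling were split, with 3 lower and 4 higher and none past the threshold. The co-receptor Gfra1 was 7.31 ± 0.705 CPM in posterior control and 4.61 ± 2.55 CPM in posterior DKO, where the highest library (8.41 CPM) exceeded every control and the median was 3.47 CPM. Etv4, a target of Ret signalling, was 48.6 ± 6.60 and 51.9 ± 9.05 CPM.

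Between regions, 22 of the 36 genes tested in controls rose and 7 fell posteriorly, where 12.1% of all genes rose and 13.3% fell. The rises and falls counted here are those past the threshold. Of the 31 genes that passed the filter in both regions, 17 rose and 7 fell; Osr2, Hoxa11, Hoxc11, Hoxd11 and Wnt9b passed it only through the posterior libraries. In DKO 16 of 35 rose and 4 fell, where 8.76% of all genes rose and 9.7% fell, and 13 rose and 4 fell of the 31 that passed the filter in both regions. Hoxa11, Hoxc11 and Hoxd11, caudal Hox genes with roles in kidney formation, rose in both genotypes, having passed the filter only through the posterior libraries. Posterior Hoxd11 was 32.4 to 62.6 CPM in controls, where the anterior libraries held at most 0.311 CPM, and posterior Hoxc11 was 9.37 to 23.0 CPM, with at most 0.0775 CPM anteriorly. Hoxa11 was 25.9 to 45.8 CPM in posterior and 0.0775 to 4.67 CPM in anterior controls.

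Etv4 rose in both genotypes as well, with log2 differences of 2.27 (SE 0.238) in controls and 2.64 (SE 0.192) in DKO. Wnt9b, the duct signal that induces tubules, rose by 1.98 on the log2 scale in controls (SE 0.248) and by 1.77 in DKO (SE 0.378). Bmp4, which restrains budding, rose by 1.60 in controls (SE 0.169) and by 2.30 in DKO (SE 0.227).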

How the data were processed

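Expected counts per Ensembl gene, made by the authors with RSEM, were deposited unscaled for 18 poly(A) libraries read singly at 61 bp. Per the submitters' processing notes, CASAVA and cutadapt were also used and the build was GRCm38; the aligner and the use of strand are not given in the sources used here. Of 53465 gene identifiers, 53360 were matched to GENCODE M21 and 105 were not.

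Counts were rounded and tested in R 4.3.3 with edgeR 4.0.16 (filterByExpr with a minimum count of 10 and a total of 15, TMM scaling, glmQLFit and glmQLFTest) over the libraries of the groups compared. Adjustment by the Benjamini-Hochberg method covered all genes tested, the threshold was 0.05, and the standard error was the log2 fold change divided by the root of F. For log2 CPM the prior count was 2. The code was tested on simulated data. Floors cover counting error only.

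Anterior and posterior libraries were paired by genotype, sex label and somite number. With group means removed, libraries of the same embryo had correlations over genes of 0.256 to 0.570 (9 pairs), and those of different embryos of a genotype −0.283 to 0.0916 (32 pairs); the embryo was a block in alternatives. Others were RLE size factors, DESeq2 1.42.0, limma-voom (limma 3.58.1), no filter, a mean of at least 50 counts, unrounded counts, somite number or sex label as covariates, all libraries in one fit, and each library or embryo left out.

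The 8 genes, the 37 pathway genes and the marker lists were chosen with earlier results of these data known. Named in addition were the pathway genes with the largest log2 differences among those past the threshold and a mean of at least 50 counts (up to 6), or the 3 with the smallest p in the DKO comparisons where none passed, and for each regulator the 3 most correlated genes. Some genes that this rule or the lists hold are not reported here. Eya1, Six2, Six4, Gfra1 and, in the DKO comparison, Etv4 were named after their values were seen.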

Additional observations from a re-analysis of the deposited data

Results flagged for a closer look

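Gdnf in the anterior library of control embryo 1 stood apart from the other anterior controls, at 0.397 CPM (7 counts) against 0.907 CPM in the nearest of them. The gap to its neighbour exceeded the limit set for a single outlying sample. It was the only such value among 32 groups of 4 or 5 libraries examined, and chance marks about 1 in 20.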

How the results depend on the processing

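The regional differences kept their direction for all 8 genes under every alternative run. All 8 passed in controls under each of them, and 6 to 8 passed in DKO, the lowest count being that with a mean of at least 50 counts, where Pax8 was not tested. In the DKO comparisons the number of the 8 genes past the threshold depended on the tool: 0 by edgeR and by limma-voom in both regions, and by DESeq2 2 anteriorly (Pax2, and Pax8, which passed the filter only through the controls) and 6 posteriorly. Posteriorly it was 1 with no filter on low counts, 1 with all 18 libraries in one fit (Pax2 in both) and 2 with the embryo as a random replicate block (Pax2 and Lhx1). With each library left out in turn it ranged from 0 to 1, the 1 being Pax2 without posterior DKO embryo 2. The interaction gave 0 of the 8 under every alternative. Over all genes tested, edgeR called 6 anteriorly and 2 posteriorly, and DESeq2 296 and 161; over all alternatives the counts ran from 1 to 296 and from 1 to 161. The replicate block also brought Lhx1 past the threshold between regions in DKO (1.14 with a random and 1.14 with a fixed block on the log2 scale) and changed no other call.

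Posterior differences between DKO and control kept their sign in 19 of 19 alternatives for each of the 8 genes. Signs turned only when a library or embryo was left out, for anterior Gdnf (−0.13 to 0.33), Osr1 (−0.59 to 0.23) and Gata3 (−0.25 to 0.027), and for the interactions of Pax2 (−0.030 to 0.32), Emx2 (−0.12 to 0.33) and Osr1 (−0.59 to 0.12). The cause was not tested. Anterior Gdnf and Pax8 rest on 6 to 63 counts per library, which limits what their differences can show, and with 4 DKO embryos single libraries carry much weight.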
